A study of Homo sapiens with 6 samples.

Results

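The genes described here are CDKN1A, the gene of the kinase inhibitor p21, and 8 further genes that the tumour suppressor p53 switches on or that act beside it in arrest and death: TNFRSF10B, MDM2, BAX, GADD45A, GADD45B, SESN1, BTG2 and CCNG1. They were followed in SH-SY5Y cells, an established human neuroblastoma line. DN-TRF2 cells carried the plasmid pIRES2-EGFP with a dominant-negative form of TRF2 (3 arrays), and GFP control cells the plasmid pEGF-C2 with no insert (3 arrays). All cells were held in geneticin at 500 µg/ml and their RNA was taken on day 7 after transfection, in 3 independent experiments. Backbone and insert differ together between the groups and cannot be told apart. Cultures selected after transfection may hold cells with different amounts of the protein, and in such bulk RNA fewer cells with a transcript and less of it per cell cannot be told apart.

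Members were taken as the spots of a cDNA array whose annotation gives 1 of the 9 symbols. Of the 9 genes, 6 had a spot: CDKN1A had 3 spots, CCNG1 had 2 and TNFRSF10B, MDM2, BAX and GADD45A had 1 each. These 9 spots were part of 9169 tested, which covered 6255 named genes. GADD45B, SESN1 and BTG2 had no spot under their names and were not analysed here. The set was chosen from earlier results of the same contrast, in which CDKN1A and TNFRSF10B had higher mean signals with DN-TRF2. The differences below are therefore a description of these arrays, and no p-value is read for a member.

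TRF2 is a protein of shelterin, the complex that covers chromosome ends, and the dominant-negative form strips it from telomeres so that the ends are sensed as broken DNA. The kinase ATM then stabilizes p53, a transcription factor held low by the ubiquitin ligase MDM2. p53 induces p21, which blocks cyclin-dependent kinases and halts the cycle, and it also induces death genes such as the receptor gene TNFRSF10B and the mitochondrial pore protein gene BAX. MDM2 is itself a p53 target, which closes a feedback loop.

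Promoter sequence is shown for CDKN1A and MDM2, both of them p53 targets that the array measured. Promoter windows of 250 bases before a transcript start (RefSeq, GRCh38.p14) were given for 7 of the 9 members. A p53 element was searched in them as 2 adjoining decamers, each within 1 mismatch of the p53 consensus and with its central C and G kept. Such an element lay in the windows of MDM2's inner transcript starts, in the promoter inside its first intron, and in no window of CDKN1A, BAX, GADD45B, SESN1, BTG2 or CCNG1. Over all 35116 windows, 0.140% held it. The CDKN1A window held 4 GC boxes (GGGCGG on either strand, of which 2 overlap here), a motif of Sp1-type factors found in 42.6% of all windows. The best-known p53 elements of CDKN1A lie farther upstream than this window, so a missing match says only that these letters are not in it. Capitals mark GC boxes in both lines and, in MDM2, also the p53 element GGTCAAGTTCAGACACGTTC, which begins 94 bases before the start.
CDKN1A, plus strand, chr6:36678464-36678713: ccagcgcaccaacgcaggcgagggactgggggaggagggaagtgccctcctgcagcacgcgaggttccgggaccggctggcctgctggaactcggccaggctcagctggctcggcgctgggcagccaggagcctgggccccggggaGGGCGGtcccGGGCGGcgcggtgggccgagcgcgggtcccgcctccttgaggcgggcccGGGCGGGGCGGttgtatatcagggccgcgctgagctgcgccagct
MDM2, plus strand, chr12:68808767-68809016: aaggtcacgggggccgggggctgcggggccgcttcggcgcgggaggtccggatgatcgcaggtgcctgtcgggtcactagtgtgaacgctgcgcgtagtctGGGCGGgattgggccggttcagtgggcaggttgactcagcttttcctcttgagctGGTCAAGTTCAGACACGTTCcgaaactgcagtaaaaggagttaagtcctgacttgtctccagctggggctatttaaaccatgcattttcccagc

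Before the members are given, the arrays need a description. Median intensity of the tested spots was 517 to 681 on the DN-TRF2 arrays and 479.9 to 712 on the GFP control arrays. Values were therefore compared as log2(intensity + 50) after quantile normalization, and only within a spot. DN-TRF2 arrays were more alike (r = 0.987 to 0.992 across spots) than GFP control arrays (0.954 to 0.980), and GFP control replicate 2 stood farthest from its group, so results that turn on it are given without it. Over all spots, limma's two-sided test gave 0% (0 of 9169) at a Benjamini-Hochberg adjusted p under 0.05, so no member passed. Without adjustment, 313 spots had a p under 0.05, against 527 with the replicate number as a block and 387 with unmoderated variance. Of listed adrenergic neuroblastoma markers 11 of 18 had a spot, with 16 of their 20 spots above the median signal. PHOX2A, HAND2, ISL1, TH and NEFL were among the markers not analysed here.

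CDKN1A was higher in mean in DN-TRF2 cells at all 3 of its spots, and the groups did not overlap at 2 of them. Of the 284 genes with 3 spots, 12.7% were higher at all 3. Of all spots, 4.28% had DN-TRF2 above without overlap. At spot 6235 the deposited intensities were 1085, 1414 and 1496 on the DN-TRF2 arrays, against 659.7, 905 and 999 on the GFP control arrays. After normalization these became 10.30, 10.53 and 10.42 (log2) in DN-TRF2 and 9.72, 9.95 and 9.76 in GFP control. Every DN-TRF2 array lay above every GFP control array, with a gap of 0.36 between the lowest DN-TRF2 and the highest GFP control value. The fitted log2 difference was 0.61 ± 0.14 (SE, n = 3 arrays per group), a ratio of 1.53 on the offset scale, and 36 of all spots had a larger one.

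Spot 759 gave nearly the same picture. Its log2 values were 10.18, 10.26 and 10.24 in DN-TRF2 and 9.51, 9.82 and 9.66 in GFP control, again without overlap. The difference was 0.56 ± 0.14 (SE), with 61 spots above it. By replicate number it was 0.67, 0.44 and 0.57, and at spot 6235 it was 0.59, 0.59 and 0.66. Within each array it ranked at percentile 68.4 to 70.01 of all spots in DN-TRF2 and at percentile 54.7 to 60.97 in GFP control.

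The third CDKN1A spot, 2231, did not separate the groups. It read 9.41, 9.21 and 9.33 (log2) in DN-TRF2 and 9.12, 9.36 and 8.94 in GFP control, a difference of 0.17 ± 0.16 (SE). GFP control replicate 2 lay above DN-TRF2 replicates 2 and 3, and at replicate number 2 the difference was -0.15. Without GFP control replicate 2 the difference was 0.28 and the groups no longer overlapped, and without GFP control replicate 3 it was 0.074. Averaged over the 3 spots, CDKN1A stood at 9.99 ± 0.019 (SD) in DN-TRF2 and 9.54 ± 0.15 in GFP control, a difference of 0.45, or 0.53 without GFP control replicate 2. At spots 759, 2231 and 6235 the SD was 0.040, 0.10 and 0.11 in DN-TRF2 and 0.15, 0.21 and 0.12 in GFP control. DN-TRF2 replicate 2 was highest of its group at spot 6235 and lowest at spot 2231, and the DN-TRF2 average varied less than any of the spots. In the median over all spots the DN-TRF2 arrays were the tighter group, at an SD of 0.13 in DN-TRF2 and 0.24 in GFP control.

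How far the 3 spots follow one another can be read without the group difference, by removing each group's mean. Spots 759 and 6235 then still varied together over the 6 arrays (r = 0.83), whereas spot 2231 followed them less closely (r = 0.38 and 0.23). Over 3606 pairs of spots of the same gene the median was 0.22, and 13.6% of pairs reached the value of spots 759 and 6235. With the group means left in, r was 0.98 for spots 759 and 6235, a value that 0.277% of pairs reached. These correlations are descriptions over 6 arrays that share their normalization, and the value of 0.98 also holds the group difference.

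**Figure D1:**
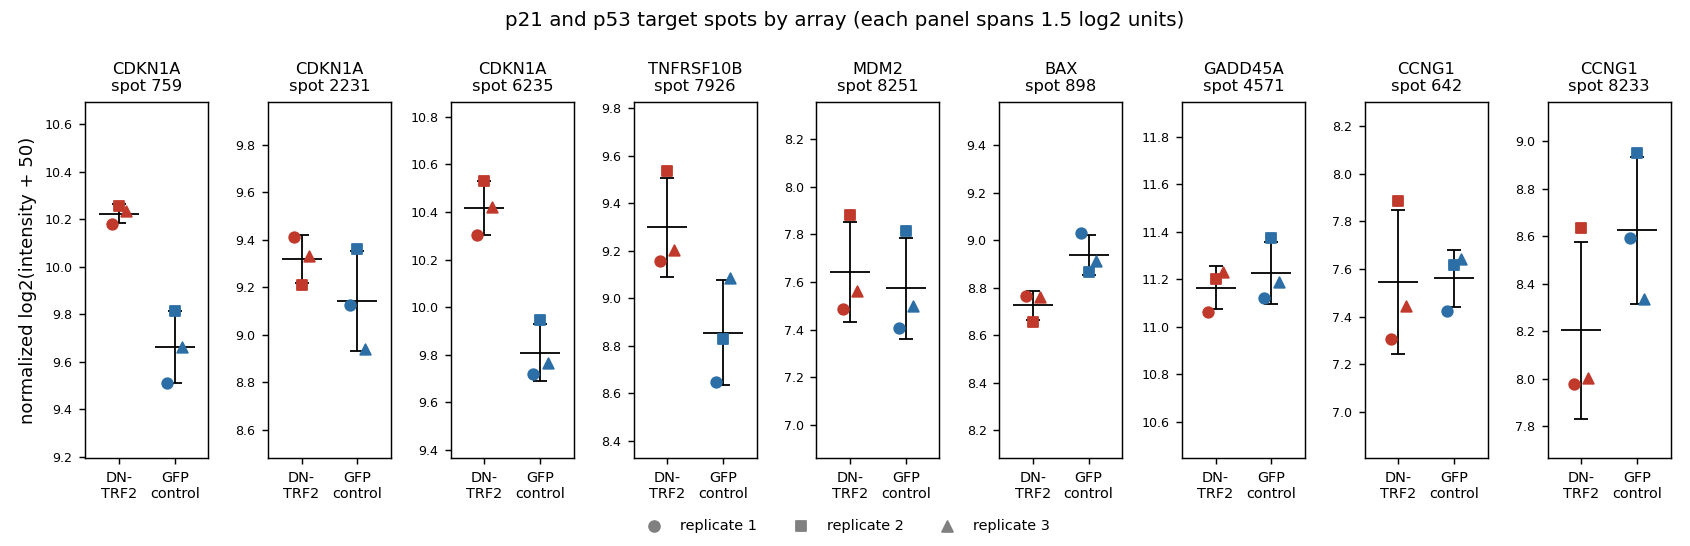
Normalized log2(intensity + 50) of the 9 member spots, 1 panel per spot, with DN-TRF2 arrays (red) left of GFP control arrays (blue), symbols for the replicate number and the bar giving mean ± SD (n = 3). CDKN1A spots 759 and 6235 show both groups apart by a gap of 0.36, CDKN1A spot 2231 shows them mixed, and at MDM2 each replicate number sits at nearly the same height in both groups.

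GADD45A and CCNG1 also belong to the arrest side. GADD45A, whose product binds PCNA and the CDK1 kinase and acts at the G2/M checkpoint, did not separate the groups. It read 11.06, 11.20 and 11.23 (log2) in DN-TRF2 and 11.12, 11.37 and 11.19 in GFP control. The difference of -0.063 ± 0.14 (SE) had no stable sign: it was 0.083 after a position correction, which removed row and column medians taken from the spot order, and 0.010 without GFP control replicate 2.

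CCNG1 encodes cyclin G1, a p53 target that recruits a phosphatase to MDM2. Its 2 spots disagreed in size. Spot 8233 read 7.98, 8.63 and 8.002 (log2) in DN-TRF2 and 8.59, 8.95 and 8.33 in GFP control. DN-TRF2 was below GFP control at each replicate number, with differences of -0.61, -0.32 and -0.33, although DN-TRF2 replicate 2 lay above GFP control replicates 1 and 3. The difference was -0.42 ± 0.22 (SE), and 0.905% of all spots had a lower one. It came to -0.26 without GFP control replicate 2 and to -0.64, with groups no longer overlapping, without DN-TRF2 replicate 2.

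Spot 642 of CCNG1 read 7.31, 7.89 and 7.44 in DN-TRF2 and 7.42, 7.62 and 7.64 in GFP control, with the GFP control arrays inside the range of the DN-TRF2 arrays. Its difference was -0.015 ± 0.18 (SE) and turned to 0.020 when arrays were centred on their medians. Once group means were removed, the CCNG1 spots correlated at 0.70 over the 6 arrays. This spot was dim, brighter than only 16.2% of all spots in mean signal.

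MDM2, the ligase that marks p53 for destruction and whose inner promoter is shown above, read 7.48, 7.88 and 7.56 (log2) in DN-TRF2 and 7.41, 7.81 and 7.50 in GFP control. The arrays ordered by replicate number and hardly by group: replicate 2 was highest in both groups. The MDM2 spot was dim, with a mean signal of 7.61 against a median of 9.29 over all spots. A change at such a spot is understated on the offset scale. By replicate number DN-TRF2 was above by 0.078, 0.067 and 0.064, and the fitted difference was 0.069 ± 0.17 (SE). The SD of the 3 paired differences was 0.0072, smaller than at all but 0.0654% of spots, while its SD within groups, 0.21, was that of the median spot. The difference was thus above 0 at every replicate number. It was -0.049 without DN-TRF2 replicate 2 and -0.014 without GFP control replicate 1, and the reason was not tested.

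On the death side the receptor gene and the pore gene went in opposite directions in mean. TNFRSF10B encodes DR5, a cell-surface receptor that starts caspase activation when it binds the ligand TRAIL. It read 9.16, 9.54 and 9.20 (log2) in DN-TRF2 and 8.65, 8.83 and 9.09 in GFP control. Every DN-TRF2 array lay above every GFP control array, but the gap was 0.070 only, between DN-TRF2 replicate 1 and GFP control replicate 3. The difference was 0.44 ± 0.17 (SE), a ratio of 1.36 on the offset scale, and by replicate number it was 0.51, 0.71 and 0.11. After the same position correction it was 0.27 and the groups overlapped.

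BAX encodes the protein that permeabilizes the outer mitochondrial membrane to release cytochrome c. It read 8.76, 8.66 and 8.76 (log2) in DN-TRF2 and 9.03, 8.87 and 8.91 in GFP control, with all DN-TRF2 arrays below all GFP control arrays and a gap of 0.10. The difference was -0.21 ± 0.14 (SE) and was negative at each replicate number, at -0.27, -0.21 and -0.15. BAX was among the least variable spots, with an SD within groups below that of all but 3.40% of spots. After the position correction the difference was -0.082 and the groups overlapped.

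**Figure D2:**
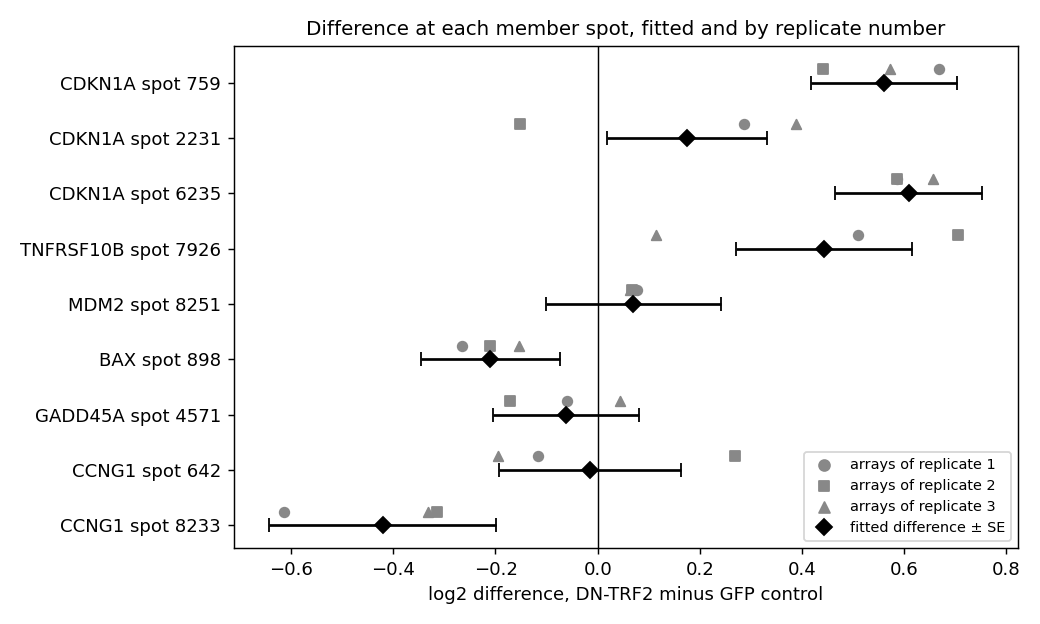
Log2 difference, DN-TRF2 minus GFP control, at each member spot: black diamonds are fitted differences with their SE (n = 3 arrays per group) and grey symbols the differences between arrays of the same replicate number. CDKN1A spots 759 and 6235 and TNFRSF10B lie above 0 at all 3 numbers, BAX and CCNG1 spot 8233 below 0 at all 3, and the 3 MDM2 values nearly coincide.

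Together, the 6 measured genes had 3 higher and 3 lower means, and a median difference of 0.0034. Over all spots, 47.3% had a higher mean in DN-TRF2. The groups did not overlap, with DN-TRF2 above, at 3 of the 9 member spots, where 4.28% of all spots did so. BAX was the 1 member spot with DN-TRF2 below, as were 4.43% of all spots. DN-TRF2 was above at all 3 replicate numbers at 4 of 9 member spots (11% of all spots) and below at all 3 numbers at 2 of 9 (14.7% of all spots). As the members were chosen on this contrast, nothing is read from these shares.

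**Figure D3:**
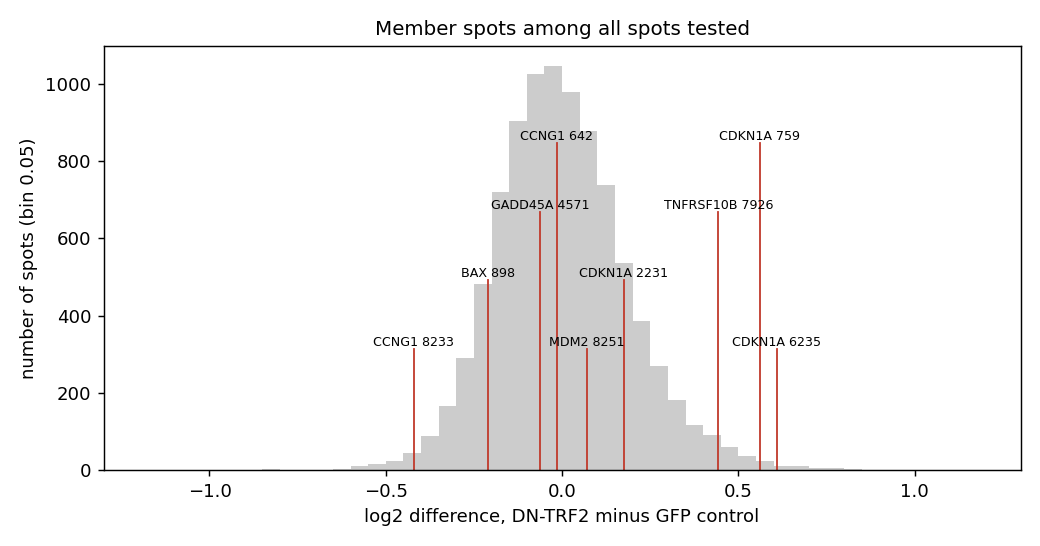
Histogram of the log2 difference, DN-TRF2 minus GFP control, over the 9169 spots tested (grey, number of spots per bin of 0.05), with the 9 member spots as red lines of arbitrary height. CDKN1A spots 759 and 6235 lie in the upper tail with TNFRSF10B, CCNG1 spot 8233 in the lower tail and the other 5 within the body.

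Relatives of the members were picked by gene family, outside the rule for naming genes, and are counted again in the pathway lists below. GADD45G, a paralogue of GADD45A and GADD45B, averaged 6.52 ± 0.072 (SD, log2) in DN-TRF2 and 6.54 ± 0.040 in GFP control over its 2 spots. The sestrin genes SESN2 and SESN3, relatives of SESN1 that restrain mTOR signalling, differed by -0.086 ± 0.14 and -0.16 ± 0.24 (SE). BTG1, the antiproliferative paralogue of BTG2, differed by -0.082 ± 0.17. TNFRSF10A, the other signalling receptor for TRAIL, differed by 0.12 ± 0.17 and CDKN1B, which encodes the p21 relative p27, by 0.018 ± 0.17. In each of these 6 genes the groups overlapped. GADD45G, SESN2 and BTG1 were dim, where a change is understated. SESN2 averaged 5.83 in DN-TRF2 and 5.92 in GFP control, and BTG1 6.41 and 6.49, against a median signal of 9.29 over all spots.

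The rest of the pathway was read from 4 lists: other p53-induced genes, p53 regulators, death machinery and cell cycle genes. The cell cycle list held cyclins, their kinases and inhibitors, and genes of the CDC25, E2F, SKP and CKS families, with TFDP1, MYC and MYCN. No gene in the 4 lists passed limma's test over all spots (0 of 34, 0 of 17, 0 of 37 and 0 of 28 measured genes). Of the other p53-induced genes 34 of 65 listed had a spot, with 18 higher and 16 lower means and a median difference of 0.035, against 48% higher and a median of -0.0067 over all named genes. Groups did not overlap in 3 of the 34, close to the 8.95% of all named genes.

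Those 3 genes all lay above. CD82, a tetraspanin gene known as a metastasis suppressor, averaged 11.71 ± 0.11 (SD, log2) in DN-TRF2 and 11.31 ± 0.22 in GFP control and was higher in mean at both of its spots. PIDD1, which encodes a death-domain protein induced by p53, averaged 11.53 ± 0.088 in DN-TRF2 and 11.16 ± 0.33 in GFP control. PLK2, a polo-like kinase gene, averaged 8.04 ± 0.11 in DN-TRF2 and 7.84 ± 0.055 in GFP control.

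Regulators of p53 had 6 of 17 measured genes with a higher mean and a median difference of -0.085. ATM, the kinase gene upstream of p53, read 9.39, 9.08 and 9.41 (log2) in DN-TRF2 and 9.51, 9.62 and 9.57 in GFP control. It was the 1 gene of these 17 without overlap, against 8.95% of all named genes. The ATM difference was -0.27 ± 0.15 (SE). HDAC1, a histone deacetylase gene, differed by -0.33 ± 0.21 and RPL5, whose ribosomal protein binds MDM2, by -0.31 ± 0.26, both with overlapping groups. At RPL5 the low array was DN-TRF2 replicate 1, at 11.66, with 12.63 and 12.77 on the other DN-TRF2 arrays and 12.58 to 12.79 on the GFP control arrays.

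Death machinery genes had 16 of 37 with a higher mean and a median difference of -0.019. CRADD, an adaptor gene of caspase-2, was a dim spot that read 6.84, 6.89 and 6.73 (log2) in DN-TRF2 and 6.26, 6.27 and 6.64 in GFP control. CASP6, an effector caspase gene, averaged 9.92 ± 0.047 (SD) in DN-TRF2 and 9.69 ± 0.058 in GFP control, with higher means at 2 of its 3 spots. Neither gene's groups overlapped, which made 2 of 37 genes, against 8.95% of all named genes. TNFRSF1A, the main TNF receptor gene, differed by -0.35 ± 0.20 (SE) with overlap. Of the BCL2 family relatives of BAX, BAK1 differed by 0.026 ± 0.15 and BCL2L1 by 0.075 ± 0.23.

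Among the cell cycle genes, 14 of 28 had a higher mean and the median difference was 0.0028. Groups did not overlap in 4 of the 28, against 8.95% of all named genes. CDK1, SKP2 and CKS2 lay below and E2F3 above. CDK1, the kinase of mitotic entry, read 7.15, 7.34 and 7.27 (log2) in DN-TRF2 and 7.50, 7.64 and 7.61 in GFP control, below without overlap. Its spot was dim, with a mean signal of 7.42 against a median of 9.29 over all spots. SKP2, the F-box protein gene that directs p27 and p21 to degradation, read 9.63, 9.66 and 9.77 in DN-TRF2 and 9.99, 10.21 and 9.81 in GFP control, averaged over 2 spots that were both lower in mean. E2F3, a transcription factor gene of S-phase entry, averaged 8.82 ± 0.090 in DN-TRF2 and 8.52 ± 0.23 in GFP control. CKS2, which encodes a small CDK-binding protein, lay below without overlap although its difference was only -0.053 ± 0.13 (SE). Its spot was bright, with a mean signal of 13.51, and DN-TRF2 replicates 1 and 2 had the same normalized value of 13.48.

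**Figure D4:**
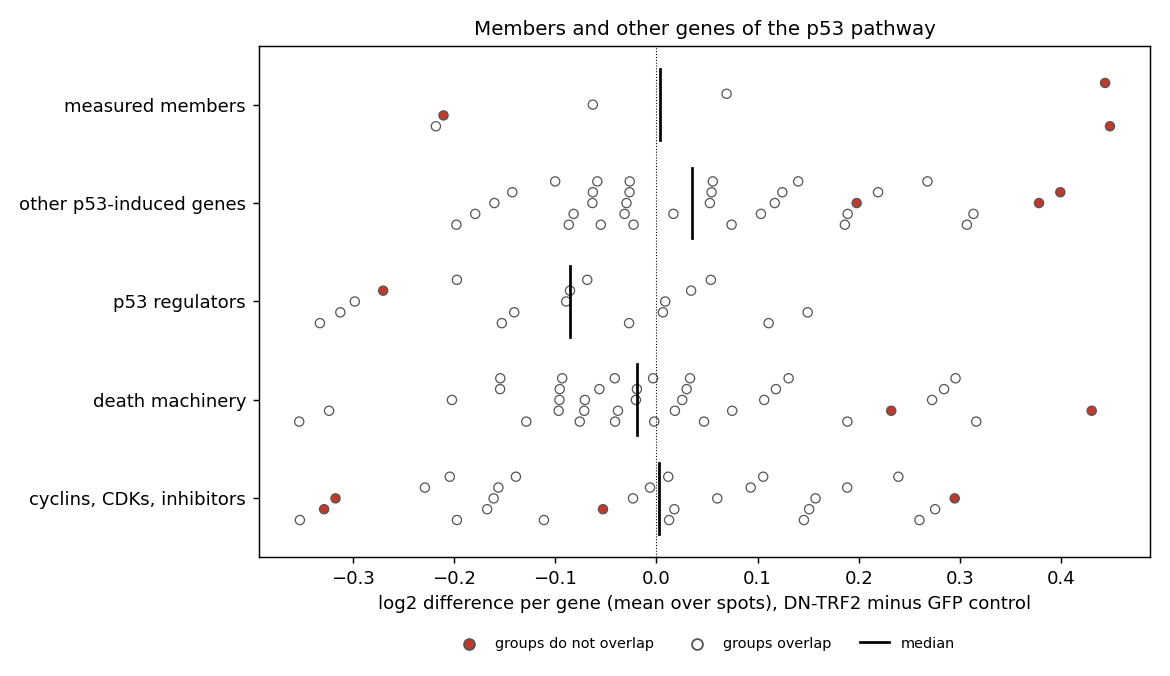
Log2 difference per gene (spots averaged), DN-TRF2 minus GFP control, for the measured members and the 4 lists of other pathway genes, 1 circle per gene, filled where the groups do not overlap, with the list median as a black bar. CDKN1A and TNFRSF10B are the highest of the 6 members at 0.45 and 0.44, and the medians of the 4 other lists lie between -0.085 and 0.035. The row labelled cyclins, CDKs, inhibitors is the whole list of cell cycle genes.

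By Pearson correlation over the 6 arrays, the genes most like the mean of the CDKN1A spots, among 2162 genes with 1 spot of above-median signal, were SOX9 (r = 0.970), CTRC (0.963), CHMP4C (0.949), HSPB8 (0.945), RNF183 (0.916) and NEIL1 (0.914). These 6 were also all that exceeded 0.9. Their DN-TRF2 minus GFP control differences ran from 0.12 for RNF183 to 0.65 for NEIL1, so the likeness holds the group difference.

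Markers of other cell types are set beside CDKN1A here. Of the substrate-adherent markers, which mark a second, flatter cell form of neuroblastoma lines, 16 of 20 had a spot, and 11 had a higher mean in DN-TRF2. Groups did not overlap in 4 of the 16, all with DN-TRF2 above, against 8.95% of all named genes in either direction. With fewer arrays overlap is rarer, and without GFP control replicate 2 it was 8 above. Without DN-TRF2 replicate 1 it was 6 above and 1 below. The 4 genes, and the adrenergic markers below, are named after their values were seen. TIMP1, which encodes an inhibitor of metalloproteinases, averaged 8.57 ± 0.14 (SD, log2) in DN-TRF2 and 7.89 ± 0.17 in GFP control, a difference of 0.68. S100A6, a calcium-binding protein gene, averaged 8.61 ± 0.099 in DN-TRF2 and 8.02 ± 0.12 in GFP control, a difference of 0.59. CAV2, a caveolin gene, averaged 11.04 ± 0.20 in DN-TRF2 and 10.56 ± 0.14 in GFP control, a difference of 0.48. In these 3 genes the difference was larger than the 0.45 of CDKN1A. SPARC, a matrix protein gene, differed by 0.17, and its groups overlapped after the position correction. The 5 lower genes were THY1 (-0.22), COL5A1 (-0.21), VIM (-0.20), ANXA1 (-0.043) and FN1 (-0.029), all with overlap. VIM lay below without overlap after the position correction, without DN-TRF2 replicate 2, and, with THY1, without GFP control replicate 3.

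The mean level of the substrate-adherent markers was 9.602 to 9.649 (log2) on the DN-TRF2 arrays and 9.436 to 9.596 on the GFP control arrays, so every DN-TRF2 array lay above every GFP control array, by a narrow gap. The groups overlapped in this mean with median centring and with an offset of 10. Adrenergic markers lay at 9.90 to 9.99 in DN-TRF2 and 9.97 to 9.98 in GFP control, with 5 of 11 genes higher in mean. That mean holds members that differed in opposite directions. Groups did not overlap in 2 of the 11, 1 above and 1 below, against 8.95% of all named genes. TUBB3, a neuronal tubulin gene, averaged 10.23 ± 0.16 in DN-TRF2 and 10.75 ± 0.30 in GFP control, a difference of -0.52, lower at both of its spots and without overlap. GAP43, a growth cone protein gene, averaged 10.01 ± 0.17 in DN-TRF2 and 9.55 ± 0.29 in GFP control, with overlap. GATA3, a transcription factor gene, differed by 0.21 without overlap. STMN2 (0.33), GATA2 (0.082) and DDC (0.026) were also higher in mean, all with overlap. NEFM (-0.27), CHGB (-0.18), MYCN (-0.16), CHGA (-0.14) and DBH (-0.040) were lower, all with overlap. After the position correction the groups of TUBB3 and GATA3 overlapped and those of GAP43 did not. Without GFP control replicate 3, 2 adrenergic genes lay above without overlap (GAP43 and GATA3) and 4 below (CHGA, MYCN, NEFM and TUBB3). Without DN-TRF2 replicate 1, 3 lay above (GAP43, GATA3 and STMN2) and 1 below (TUBB3). Blood markers, with 3 of 7 measured (CD14, HBB and LYZ), lay at 8.37 to 8.63 in DN-TRF2 and 8.40 to 8.49 in GFP control. CD14 and HBB were above in DN-TRF2 without overlap, by 0.18 and 0.19. That is 2 of the 3 genes, against 8.95% of all named genes. HBB was dim, at a mean signal of 6.21, and LYZ differed by -0.15 with overlap. No gene of these 3 marker lists passed limma's test over all spots, and no spot of them was at the stand-in value of 10 on any array. Their part in the CDKN1A difference was not tested.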

How the data were processed

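The authors deposited 1 linear intensity value per spot and array. Per the labels' protocols, about 5 µg of total RNA per sample was reverse-transcribed with 33P-dCTP, and each array holds 1 sample. How the image was read, background treated or signal scaled is not given in the sources used here. Of 9600 spots, 384 blank positions and 47 further spots at the stand-in value of 10 on all arrays were left out. The labels give 3 independent experiments, and the number of arrays limits the precision.

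Spots were named from the platform annotation, updated by gene ID to GRCh38.p14 symbols (8451 of 9169 spots with 1 gene). A named value is that of the spot so annotated. An offset of 50 was added, log2 taken, arrays quantile-normalized, and all spots fitted in R 4.3.3 with limma 3.58.1 (lmFit, then eBayes; two-sided p, Benjamini-Hochberg adjustment, threshold 0.05). Fold changes on the offset scale understate changes of dim spots. The fit was tested on simulated data.

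Members, lists and tests were chosen with earlier results of these data known. All member spots were named. Each of the 4 pathway lists names up to 5 genes of largest difference without overlap, with places up to 3 filled by largest difference. Same-numbered arrays deviated together from their group means (r = 0.390, 0.296 and 0.246), so replicate numbers were treated as pairs, which the labels do not state. Alternatives covered the offset, the normalization, dim spots, a floor at 10, position, array weights, the replicate block, unmoderated variance, the spot of highest signal per gene and leaving out each array.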

Additional observations from a re-analysis of the deposited data

How the results depend on the processing

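No spot passed limma's adjusted p (0 of 9169) in any alternative run, and the smallest adjusted p was 0.269, with the replicate block. That block left every difference as it was. Spots at an unadjusted p under 0.05 numbered 313, against 527 with the replicate block, 583 with array weights, 115 of 4585 without the spots below median signal, and 141 to 792 with 1 array left out. Spots whose groups do not overlap numbered 798, against 291 without the dim spots and 1201 to 2308 with 1 array left out, where fewer arrays make overlap rarer.

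CDKN1A differed by 0.45 over its spots and by 0.40 to 0.53 with 1 array left out. It was 0.58 without the dim spots, which leaves out spot 2231. Dropping dim spots also left 1 of 2 members, 7 of 14 other p53-induced genes and 7 of 14 cell cycle genes with a higher mean. With 1 array left out, 2 to 4 of 6 members had a higher mean. The p53 regulators had 6 of 17, but 2 with median centring and 3 to 10 with 1 array left out. CDKN1A, TNFRSF10B, BAX and CCNG1 spot 8233 kept their sign in every alternative that measured them; GADD45A and CCNG1 spot 642 did not, and MDM2 lost its sign only in 2 of the 6 fits without 1 array. For the marker lists, settings added after the values were seen gave 10 to 11 of 16 substrate-adherent and 4 to 6 of 11 adrenergic genes with a higher mean. The cause of these shifts was not tested.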

Other observations

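PIDD1 and CRADD, which both lay above without overlap, encode proteins that assemble with caspase-2 into the PIDDosome, a platform that activates that caspase. These 2 genes were put together, and the third gene, CASP2, singled out, after the values were seen. Groups did not overlap in 3 of 34 genes of PIDD1's list and 2 of 37 of CRADD's, against 8.95% of all named genes. The CASP2 spot read 11.91, 12.02 and 11.90 (log2) in DN-TRF2 and 11.39, 11.51 and 12.07 in GFP control. GFP control replicate 3 lay above all DN-TRF2 arrays, and the difference was 0.28 ± 0.19 (SE, n = 3 arrays per group). PIDD1 read 11.48, 11.49 and 11.64 in DN-TRF2 and 11.25, 10.78 and 11.44 in GFP control, a difference of 0.38 ± 0.18. CRADD differed by 0.43 ± 0.16. For each of the 3 genes, GFP control replicate 3 was the highest control array, and no spot passed limma's test over all spots.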
